A study of Mus musculus with 10 samples.

Results

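Open chromatin regions that were shared by aged and young muscle stem cells after PGE2, and that stood at least 20 percentile points higher among the shared regions in the aged cells, numbered 3494 of 81213 shared pairs (4.3%). Rows of each deposited peak list that touched or overlapped were merged into regions. A pair was 1 aged and 1 young region that overlapped each other and no other region. Each pair was ranked within its own list by the caller's −log10 q-value at the strongest summit, and a member also had to reach 5-fold over background in the aged list. The members were thus chosen by their −log10 q-values in both lists and their fold in the aged list, and those values are given below as a description, with no test. A difference in rank between lists does not by itself show that a site was more or less open in either age.

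The aged group was muscle stem cells of C57BL/6 mice 20 to 25 months old, treated with prostaglandin E2 (PGE2) for 2 h (3 libraries). The young group was the same cells of C57BL/6 mice 8 to 20 weeks old, with the same treatment (2 libraries). Both were sorted as α7-integrin and CD34 positive and given PGE2 in DMSO when they were seeded, and open DNA was tagged with a transposase (ATAC-seq). The series has 10 samples in 4 groups, and its vehicle groups (0.1% DMSO, 3 aged and 2 young libraries) were not analysed here, so whether a difference was there before PGE2 cannot be told apart from a response to it. Each age had 1 list of regions with no value per library. Nothing that sets the ages against each other has a spread between replicates, no p-values are given, and all intervals below are exact binomial intervals over regions (95%) that cover counting only. The aged list held 117284 regions over 71.6 Mb, on a uniform background of 19.8 fragments, and the young list 131656 regions over 92.2 Mb, on a background of 21.7 fragments. The read depth of the libraries is unknown. A region lay within 1 kb of a gene end for 12 of 12 muscle stem cell markers in the aged list and for 12 of 12 in the young list. In the aged list the counts for other cell types were 6 of 20 immune, 11 of 18 endothelial, 16 of 19 fibro-adipogenic, 13 of 13 smooth muscle and pericyte, 8 of 12 glial and 21 of 26 myofibre genes. In the young list they were 7 of 20, 13 of 18, 15 of 19, 13 of 13, 9 of 12 and 22 of 26 for the same cell types. The part of other cells in the results below was not tested.

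Muscle stem cells rest beside the muscle fibre and enter the cell cycle after injury. Most regulatory DNA of a cell type lies away from start sites, in enhancers, and these sites differ more between cell states than promoters do. PGE2 is a lipid signal of injured muscle that acts through surface receptors, some of which raise cyclic AMP (cAMP). Phosphodiesterases break down cAMP, and the product of Hpgd degrades PGE2.

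Few members lay at start sites, and 5 promoters that a member overlapped are shown here because the results below return to these genes. Members overlapped 69 of the 32851 RefSeq promoter windows (250 bases before to 50 after a start site, GRCm38.p6). The windows of Cftr, Zfp423 and Hpgd were taken because these genes also had the largest gaps, the highest folds or the most members. Those of Ifi47 and Serpina3n were chosen after their values were seen, as start sites with gaps above 50 points. Pcdh20, with a gap of 56.4 points, also met this and is not shown. The aged summit lay inside the window at Cftr, Ifi47 and Serpina3n and outside it at Zfp423 and Hpgd. The Zfp423 window belongs to an internal start site, well inside the span of the gene. Cftr encodes a chloride channel, Zfp423 a zinc finger factor of the fat lineage, Ifi47 an interferon-inducible GTPase and Serpina3n a secreted protease inhibitor. Capitals mark matches on either strand to AP-1 (TGANTCA), CRE (TGACGTCA), STAT (TTCNNNGAA), ETS (CCGGAAGT), C/EBP (TTGCNNAA) or the E-boxes CAGCTG and CACGTG. Sequences run 5′ to 3′ on the strand of the gene.
Cftr promoter, chr6:18170437-18170736, plus strand: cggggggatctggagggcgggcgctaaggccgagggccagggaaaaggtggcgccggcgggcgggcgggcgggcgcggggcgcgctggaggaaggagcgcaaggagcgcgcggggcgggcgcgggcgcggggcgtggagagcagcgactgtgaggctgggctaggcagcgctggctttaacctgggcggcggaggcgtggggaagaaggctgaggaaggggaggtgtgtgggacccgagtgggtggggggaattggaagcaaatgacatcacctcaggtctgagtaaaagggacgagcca
Zfp423 promoter, chr8:87804390-87804689, minus strand: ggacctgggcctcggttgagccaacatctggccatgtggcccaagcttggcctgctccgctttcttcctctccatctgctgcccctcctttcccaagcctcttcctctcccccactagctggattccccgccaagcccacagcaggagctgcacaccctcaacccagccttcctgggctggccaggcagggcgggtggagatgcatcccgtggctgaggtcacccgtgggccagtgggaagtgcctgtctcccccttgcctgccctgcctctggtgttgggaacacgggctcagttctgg
Hpgd promoter, chr8:56294302-56294601, plus strand: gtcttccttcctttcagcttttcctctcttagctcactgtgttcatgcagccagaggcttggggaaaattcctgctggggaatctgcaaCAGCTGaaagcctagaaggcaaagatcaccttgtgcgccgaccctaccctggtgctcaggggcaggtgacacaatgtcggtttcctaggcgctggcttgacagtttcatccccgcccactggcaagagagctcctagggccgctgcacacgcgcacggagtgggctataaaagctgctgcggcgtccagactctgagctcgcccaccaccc
Ifi47 promoter, chr11:49076337-49076636, plus strand: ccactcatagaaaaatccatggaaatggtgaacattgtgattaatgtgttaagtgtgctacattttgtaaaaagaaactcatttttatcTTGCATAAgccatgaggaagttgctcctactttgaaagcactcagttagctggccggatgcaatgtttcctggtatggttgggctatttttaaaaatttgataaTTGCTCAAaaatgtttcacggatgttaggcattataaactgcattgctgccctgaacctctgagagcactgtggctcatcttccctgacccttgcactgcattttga
Serpina3n promoter, chr12:104406458-104406757, plus strand: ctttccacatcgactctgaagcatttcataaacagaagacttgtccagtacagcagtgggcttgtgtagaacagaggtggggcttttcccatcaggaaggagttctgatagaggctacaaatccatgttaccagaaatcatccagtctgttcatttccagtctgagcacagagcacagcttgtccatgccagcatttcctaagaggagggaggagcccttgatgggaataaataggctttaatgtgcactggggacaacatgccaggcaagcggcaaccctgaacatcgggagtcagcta

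The Cftr window had 31 CpG dinucleotides and the Ifi47 window 2. The Ifi47 window held 2 matches to C/EBP and the Hpgd window 1 CAGCTG, while none of these motifs occurred in the Cftr, Zfp423 and Serpina3n windows. Over the 69 windows with a member the median was 5 CpG and 50.3% GC, against 20 CpG and 61% GC over the 11840 windows with any pair and 7 CpG and 52.7% GC over all windows. C/EBP letters occurred in 20.3% of the windows with a member, in 8.29% of windows with any pair and in 10.8% of all windows. The E-box CAGCTG gave 29.0%, 15.7% and 16.3% in the same order, AP-1 13.0%, 5.57% and 7.81%, and STAT 11.6%, 6.82% and 8.30%. ETS letters were found in 0 of the 69 windows with a member, in 8.18% of windows with any pair and in 3.89% of all windows. CRE letters, which CREB binds downstream of cAMP, were found in 0 of 69, in 3.0% and in 1.79%. The E-box CACGTG gave 4.35%, 9.78% and 7.15%. In all, 18 motifs were searched on both strands, CpG among them, and matches of different motifs may overlap. The other 10 were RUNX (TGTGGTT), with 10.1%, 3.53% and 5.27% in the same order, TEAD (CATTCC), with 18.8%, 12.0% and 14.7%, and FOX (TGTTTAC), with 5.80%, 2.53% and 3.65%. The pattern used for the SRF CArG motif fixed only its outer C and G bases and allowed any base between them. This loose pattern gave 68.1%, 86.7% and 73.3%, which are not a measure of SRF sites. The CTCF core (CCACNAGG) gave 11.6%, 5.90% and 4.99%. The NF-κB motif gave 4.35%, 1.72% and 1.63%, and EGR (GCGTGGGCG) 2.90%, 1.11% and 0.612%. A paired steroid receptor motif was found in 1 window with a member, and the full NFI site and a PAX homeodomain motif in 0 of 69, and each of these 3 in under 0.5% of windows with any pair and of all windows. Mirror pairs, chosen by the same thresholds with the ages exchanged, overlapped 260 windows. Their shares were 9.23% for C/EBP, 21.5% for CAGCTG, 8.08% for AP-1, 6.15% for STAT and 1.15% for ETS. CRE gave 1.54% there and CACGTG 7.31%. Over the 69 windows the intervals were wide, such as 18.7 to 41.2% for CAGCTG, 6.14 to 23.3% for AP-1 and 0 to 5.21% for ETS. These are matches of letters in a window and not binding sites, and GC content differed between the sets.

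Members had a middling rank in the aged list and mostly a low one in the young list. Their median fold, the authors' enrichment over background, was 6.97 in the aged list (range 5.05 to 41.8) and 4.62 in the young list (1.76 to 13.9). Over all pairs the median was 5.09 in the aged list and 7.13 in the young list. The fold was higher in the aged list for all 3494 members and for 23.0% of all pairs, which the rule largely fixes. The median percentile of members was 61.4 in the aged list (49.7 to 94.4) and 31.7 in the young list (0.0603 to 71.5). The gap, aged minus young, had a median of 28.3 points and reached 73.5. It was at least 30 points in 1531 members, 40 in 578, 50 in 164, 60 in 25 and 70 in 2. An aged fold of 10 or more was found in 645 members, of 20 in 38 and of 30 in 4. After division by the median over all pairs, the ratio of aged to young fold had a median of 2.08 among members (1.54 to 7.63).

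The threshold on the fold left out many pairs. Of 6794 pairs at least 20 points higher in the aged list, 3300 had an aged fold under 5. Among the 41023 pairs with an aged fold of at least 5, members made up 8.52%. The same thresholds with the ages exchanged gave 5200 mirror pairs (6.4% of all pairs), which ranked higher in the young list. A fold of 5 cut deeper into the aged ranking. The lowest young percentile of a mirror pair was 35.3, and the lowest aged percentile of a member was 49.7. The counts of members and mirror pairs are thus not matched in rank, and at a fold of 3 they were 6762 and 6375. Ranked among all regions of each list in place of the pairs, 1356 of the 3494 pairs remained members and none was added.

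**Figure D1:**
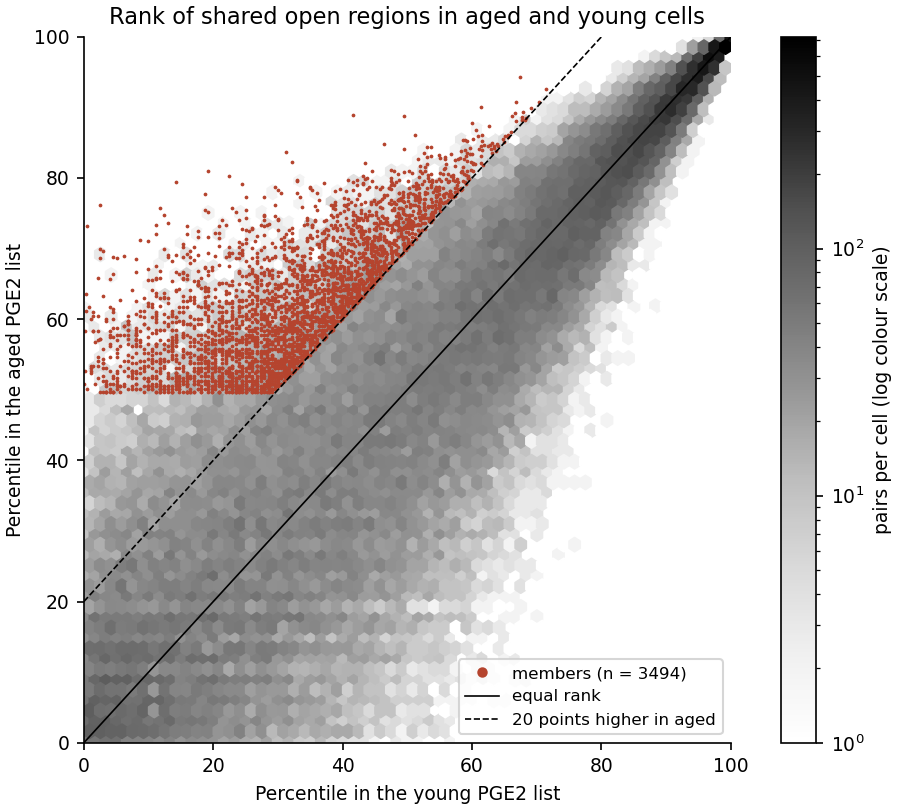
Each shared region by its percentile in the young list (x axis) and in the aged list (y axis), with the number of pairs as grey shade on a log colour scale. The 3494 members, in red, lie above the dashed line 20 points over equal rank and start at an aged percentile of 49.7, where the aged fold reaches 5.

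Members lay away from gene ends. Only 91 of 3494 (2.60%, interval 2.10 to 3.19) had their summit within 1 kb of either end of a protein-coding gene. The share was 8.10% of mirror pairs, 20.6% of pairs with an aged fold of at least 5 and 13.1% of all pairs. On the chromosomes for which start sites were used, 59 of 3361 members (1.76%, 1.34 to 2.26) lay within 1 kb of one, against 4.98% of mirror pairs and 10.7% of all pairs. Members between genes made up 49.1% (47.4 to 50.8), against 40.4% of mirror pairs and 39.4% of all pairs. Members inside a gene span made up 48.3%, mirror pairs 51.5% and all pairs 47.5%. The share over 100 kb from any start site (or any gene end where a gene had no start site) was 33.5% of members (31.9 to 35.1). It was 15.2% of mirror pairs and 18.8% of all pairs. The median distance was 52657 bp for members, 21995 bp for mirror pairs and 24270 bp for all pairs.

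Of the other pairs above the 90th percentile of the aged list, where 4 members lay, 52.4% lay at a gene end, so members were also set beside other pairs of like aged rank. This does not match strength in both lists. By the rule members ranked at least 20 points lower in the young list, a limit not set on the other pairs. Between the 50th and 60th percentile of the aged list, 2.97% of 1482 members and 6.40% of 6628 other pairs lay at a gene end. Between the 60th and 70th the shares were 2.47% and 8.64%, and between the 70th and 80th 2.31% and 12.7%. Between the 80th and 90th, where 122 members lay, they were 1.64% and 26.2%. The share over 100 kb from a start site was 32.1% of members and 17.7% of other pairs between the 50th and 60th percentile. It was 36.6% and 17.8% between the 70th and 80th. The gene-end share of members was the lower of the pair in each step of 10 points from the 40th to the 90th percentile.

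**Figure D2:**
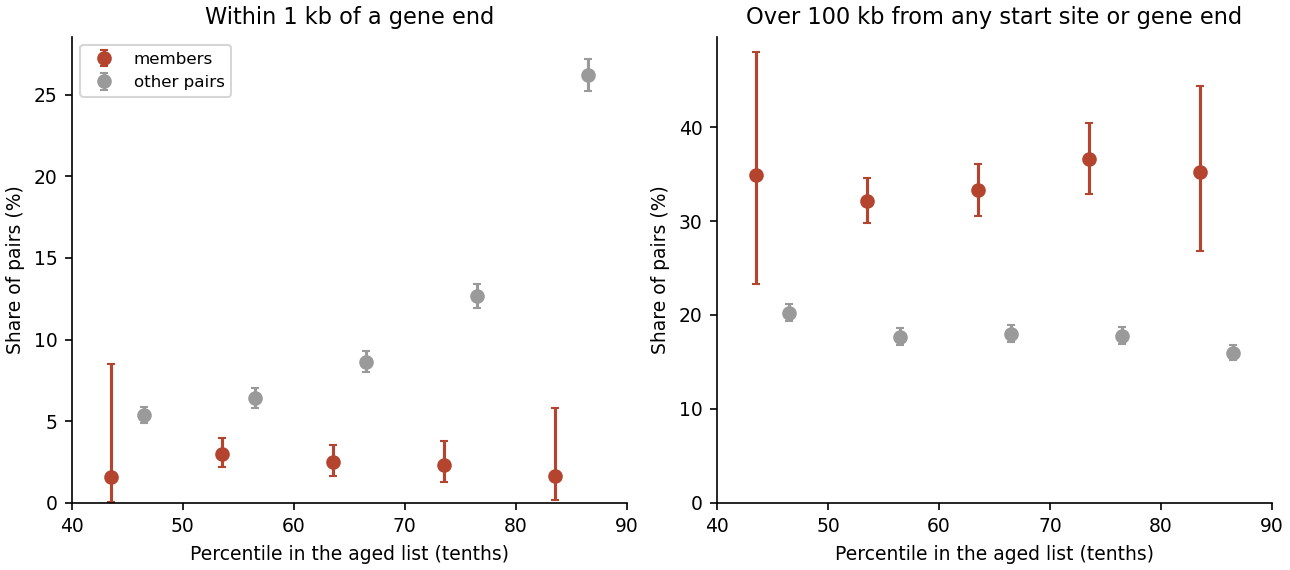
Share of pairs (%) within 1 kb of a gene end (left) and over 100 kb from any start site or gene end used (right), by steps of 10 points of the percentile in the aged list, for members (red) and other pairs (grey). Bars are exact 95% binomial intervals over regions. Between the 40th and 90th percentile members lie between 1.59% and 2.97% at gene ends and other pairs between 5.38% and 26.2%.

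Members were wider in the aged list, where regions in general were narrower. The median width of members was 525 bp in the aged list and 445 bp in the young list, with a median ratio of 1.11 (1.10 to 1.12), and 71.4% were wider in the aged list. Over all pairs the medians were 429 bp and 570 bp, the ratio 0.851, and 22.7% were wider in the aged list. Mirror pairs had medians of 250 bp and 518 bp and a ratio of 0.548. Width comes from the same pileup as the rank and is a description. The summit itself kept its place. The 2 summits of a member lay a median of 16 bp apart, and 91.9% lay within 100 bp, against 90.7% over all pairs.

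Regions found at a single age were also counted around members. An aged-only region lay within 10 kb of 38.8% of members (37.1 to 40.4), against 9.54% of mirror pairs and 22.7% of all pairs. A young-only region lay within 10 kb of 30.5% of members (29.0 to 32.1), against 49.2% of mirror pairs and 45.7% of all pairs.

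Members also lay next to each other. Of 3168 members with a further pair downstream within 50 kb, the next pair was a member in 413 (13.0%, 11.9 to 14.3), where 4.39% of all such next pairs were members. After a mirror pair, the next pair was a mirror pair in 590 of 4199 (14.1%, 13.0 to 15.1), against 5.79% of all next pairs. After a member, the next pair was a mirror pair in 1.26%. Of 3081 runs of neighbouring members, 337 held 2 or more (750 members), 57 held 3 or more and 13 held 4 or more. Neighbours share a locus and are not independent. The longest run, of 8, lay at the start of chromosome 9 (chr9:3001413-3023542), and 1 of the 2 runs of 5 lay on a scaffold not placed on a chromosome, in stretches described below. Runs of 4 lay at Ifi47, at Cpxm2, which encodes a secreted carboxypeptidase-like protein, at Lima1, which encodes an actin-binding protein, and at Pid1, which encodes an adaptor protein of insulin signalling. Another run of 4 was assigned to Eif4enif1, which encodes a transporter of the translation factor eIF4E. It lay outside the gene, at chr11:3172447-3180189, where the span of Eif4enif1 runs from 3202343 to 3244588. The other runs of 4 lay at Ccng2, Unc93a2 and Elapor2 and at 2 places with no assigned gene. The 4 members at Cpxm2 had aged folds of 5.48 to 7.16 and young folds of 3.30 to 3.96. The other run of 5, between 37402485 and 37413668 on chromosome 10, over 100 kb from a start site, had aged folds of 5.86 to 9.23 and young folds of 2.82 to 6.03.

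In some stretches nearly every shared region ranked higher in the aged list. Of 1800 bins of 1 Mb with at least 10 pairs, 638 (35.4%) held no member, 238 held 5 or more, and in 41 at least 20% of pairs were members. The median gap over all pairs of a bin was at least 10 points in 61 bins, which held 332 members among 1754 pairs, and at least 10 points in the other direction in 50 bins. In the bin from 75 to 76 Mb on chromosome 4, at Ptprd, which encodes a receptor tyrosine phosphatase, 6 of 13 pairs were members and 13 of 13 ranked higher in the aged list. In the bin from 7 to 8 Mb on chromosome 5, around Steap4, 6 of 19 were members and 17 of 19 ranked higher in the aged list. In the bin from 18 to 19 Mb on chromosome 6, around Cftr, 4 of 13 were members and 11 of 13 ranked higher in the aged list. A high share of members did not always go with such a stretch. In the bin from 56 to 57 Mb on chromosome 8, at Hpgd, 7 of 16 were members. Only 8 of 16 pairs there ranked higher in the aged list.

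The share of members ran from 2.69% on chromosome 19 to 5.16% on chromosome 13, with an SD over the 19 autosomes of 0.674 points. On chromosome X it was 6.47% (117 of 1809 pairs, 5.38 to 7.70). Chromosome Y held 14 shared pairs, 1 of them a member, with a median gap of −0.454 points. The labels used here do not give the sex of the mice, and the number of X chromosomes in each list was not tested. On scaffolds not placed on a chromosome, or assigned to one without a position, 12 of 46 pairs were members. None of these members lay on a scaffold assigned to a chromosome. Below 3.1 Mb on chromosome 9, 13 of 16 pairs were members, with aged folds of 7.98 to 25.7. The 25 members on scaffolds and in this part of chromosome 9 stood apart from the rest, and without those stretches 3472 members were found.

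The 15 largest gaps belonged to regions with low folds in the young list, 1.85 to 3.08. The largest, 73.5 points, lay between genes 30462 bp from a start site of Cyp2a12, a cytochrome P450 gene (chr7:27059328-27060003). It had a fold of 12.3 in the aged list (255 fragments at the summit) and 2.20 in the young list (49 fragments). The next, 72.7 points, lay inside Klhl29, a Kelch-like gene, with a fold of 10.8 in the aged list and 1.89 in the young list. A region 872 bp from the start site of Cftr had 9.32-fold in the aged list and 2.24-fold in the young list (66.7 points). Of the 15 largest gaps, 7 were not within 100 kb of a start site or gene end used. The other 8 lay at Cyp2a12, Klhl29, Cftr, Ccdc190, Gvin1, Pik3c2g, Tdpoz2 and Ikbkb. Gvin1 encodes a very large interferon-inducible GTPase, and its region had 8.99-fold in the aged list and 2.38-fold in the young list. Ikbkb encodes the kinase that switches on NF-κB signalling, and its region, 1915 bp from an end of the gene span (no start site of Ikbkb was used), had 9.90-fold in the aged list and 2.69-fold in the young list. Aged widths over these 15 members ran from 377 to 1336 bp and young widths from 149 to 495 bp.

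The 10 members with the highest aged fold were 654 to 1645 bp wide in the aged list, where the median over all pairs was 429 bp, and had young folds of 5.81 to 13.9. The highest aged fold was 41.8 (869 fragments), at the 94.4th percentile, in a region of 1645 bp inside Celf2, which encodes a regulator of RNA splicing (chr2:7114754-7116398). In the young list the region had 11.9-fold (270 fragments) at the 67.4th percentile. A region between genes on chromosome 13 had 35.7-fold in the aged list and 13.9-fold in the young list. One inside Hmgcll1, which encodes a lyase of ketone body synthesis, had 30.9-fold in the aged list and 13.3-fold in the young list. A region 7910 bp from a start site of Zfp423 had 26.8-fold in the aged list and 7.04-fold in the young list. One 42061 bp from Eed, a subunit gene of the Polycomb complex that methylates histone H3, had 27.6-fold in the aged list and 11.6-fold in the young list. The widest gap among these 10 was 47.4 points, on chromosome 9 and 239321 bp from a start site, with 27.1-fold in the aged list and 5.81-fold in the young list. The others lay at Rtp1, Tmem126b, Hpgd and on chromosome 2, with aged folds of 27.6 to 30.8 and young folds of 9.77 to 12.7.

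A gene was assigned to 2324 members, namely the one with the nearest start site (or gene end, where no start site was used) within 100 kb, which need not be the gene a region acts on. They were 3.52% of the 65941 assigned pairs and were spread over 1575 of the 15083 genes with a pair. A single member was assigned to 1110 genes, 3 or more to 168, and 5 or more to 27, of which 23 had no mirror pair. Mirror pairs were 6.69% of all assigned pairs, and 369 of the 1575 genes with a member also had one. The lack of a mirror pair was thus common and does not set the 27 genes apart. A long gene or one with few neighbours receives more pairs.

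Celf2 had the most members, 11 of 46 pairs, with no mirror pair and a median gap over all its pairs of 13.7 points. Its members spread over chr2:6733250-7160521, with aged folds of 5.53 to 41.8 and young folds of 3.04 to 11.9. Sash1, which encodes a signalling scaffold protein, had 8 of 28, with aged folds of 5.19 to 13.3 and young folds of 2.42 to 8.01. Rbms1, an RNA-binding protein gene, had 7 of 52, with aged folds of 5.19 to 8.99 and young folds of 3.39 to 6.12. Pik3c2g, which encodes a class II phosphoinositide kinase, had 6 of 35, and Btg1, an antiproliferative gene, 6 of 25. Zfhx4, a zinc finger homeobox gene, had 6 of 39, Sv2b, a synaptic vesicle protein gene, 6 of 20 and 1 mirror pair, and Klhl29 5 of 19. Steap4, which encodes a metalloreductase of iron and copper uptake, had 6 of 17 with a median gap of 24.6 points over all its pairs. Among these 10 genes the median gap over all pairs, members or not, ran from 4.90 points at Rbms1 to 32.8 points at Hpgd.

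Of the 7 pairs of Hpgd, 6 were members and all 7 ranked higher in the aged list. The region at its start site (chr8:56293439-56295472), which reaches over the promoter printed above, had 13.8-fold in the aged list (287 fragments) and 8.80-fold in the young list (199 fragments). Its percentile was 78.4 in the aged list and 57.9 in the young list. The strongest Hpgd member lay 60189 bp from the start site, with 27.6-fold in the aged list and 12.1-fold in the young list. A member 15941 bp away had 6.25-fold in the aged list and 3.96-fold in the young list. Close neighbours 50115 and 51337 bp away had 5.81-fold and 6.87-fold in the aged list, against 3.52-fold and 3.61-fold in the young list. The farthest, 94263 bp away, had 14.1-fold in the aged list and 6.34-fold in the young list. The only pair that was not a member, 42446 bp away, had 3.27-fold in the aged list and 2.69-fold in the young list, a gap of 18.6 points. These regions lie side by side in 1 locus, and the gene had been singled out by earlier results of the same lists.

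**Figure D3:**
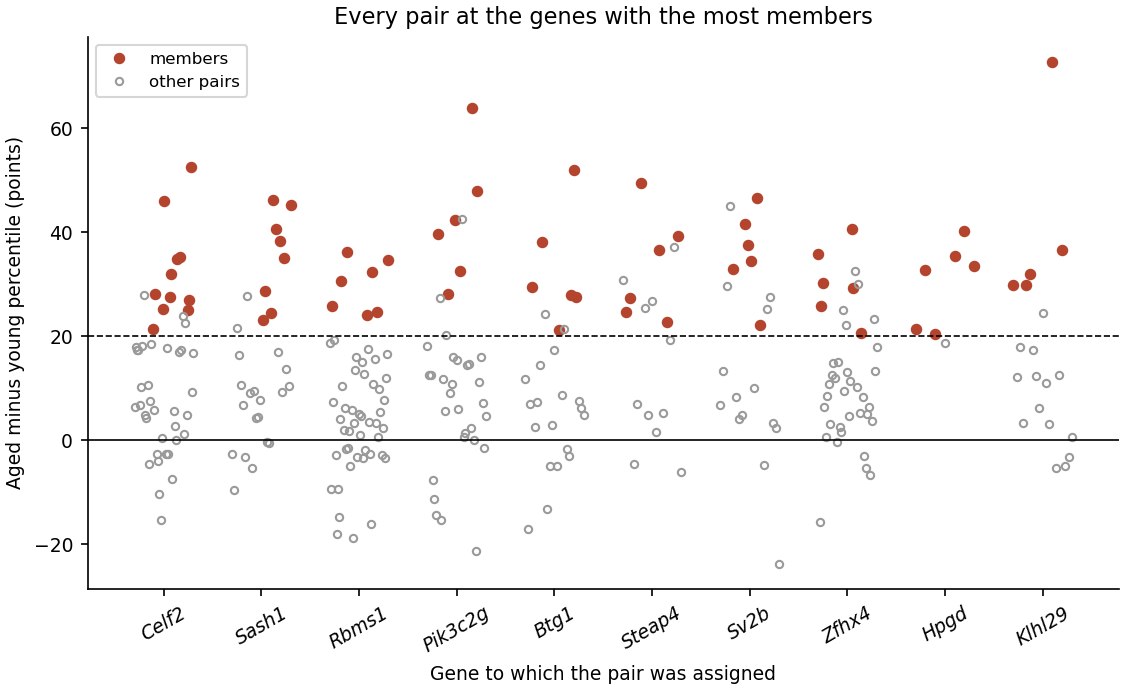
Difference in percentile (aged minus young, points) for every pair assigned to the 10 genes with the most members, in order along the chromosome within each gene. Members are red and other pairs open grey circles, the dashed line marks 20 points, and all 7 Hpgd pairs lie above 0.

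At start sites, 29 members had a summit within 250 bp of one. The same count over all pairs was not made. Within 1 kb of a start site lay 1.76% of members, 4.98% of mirror pairs and 10.7% of all pairs, so such members were few. Ifi47 had 8.36-fold in the aged list (173 fragments) and 2.91-fold in the young list (65 fragments) at 8 bp from its start. The other 3 pairs assigned to Ifi47 were also members, with aged folds of 6.10, 6.68 and 17.7 and young folds of 2.64, 2.02 and 8.32. Serpina3n had 6.15-fold in the aged list and 2.20-fold in the young list. Cftr had 7.78-fold in the aged list and 3.35-fold in the young list, and 4 of its 5 pairs were members. A region at an internal start site of Zfp423 had 8.99-fold in the aged list and 3.70-fold in the young list. Crybb3, a lens crystallin gene, had 6.82-fold in the aged list and 2.86-fold in the young list. Nr6a1, which encodes an orphan nuclear receptor, had 10.4-fold in the aged list and 4.01-fold in the young list. Uba7, which encodes the activating enzyme of the ubiquitin-like protein ISG15, had 13.1-fold in the aged list and 8.01-fold in the young list. An internal start site of Stat5b, which encodes a transcription factor of cytokine signalling, had 6.25-fold in the aged list and 4.40-fold in the young list. P2rx7, the gene of an ATP-gated channel, had 7.26-fold in the aged list and 5.68-fold in the young list. Of these 29 members, 7 had an aged fold of 10 or more.

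Gene lists for the tissue and treatment held members in shares from 0 to 6.91% over 24 lists, against 3.52% of all assigned pairs. The share was above that value in 9 lists and below it in 15. Some genes stand in more than 1 list, and the lists were drawn up with results of these data known.

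Genes of PGE2 and cAMP signalling had 25 members among 362 pairs (6.91%, 4.52 to 10.03) at 10 of 42 genes with a pair, and 14 mirror pairs. The median gap of all pairs of the list was 1.5 points, against −0.626 over all assigned pairs. Apart from the 6 at Hpgd, Slco2a1, the gene of a prostaglandin uptake transporter, had 4 of 14. The strongest of these had 14.8-fold in the aged list and 7.88-fold in the young list. The phosphodiesterase genes Pde3a, Pde4b, Pde7b and Pde8a had 4, 3, 2 and 2 members among 57, 38, 25 and 12 pairs. Their mirror pairs numbered 0, 2, 1 and 1, and their median gaps over all pairs were 8.69, 2.81, 6.57 and −0.622 points. The strongest of these members, inside Pde4b, had 24.9-fold in the aged list and 9.38-fold in the young list. Ptges, the gene of a PGE2 synthase, had 1 member of 9.03-fold in the aged list and 3.74-fold in the young list. The median gap over its 3 pairs was −12.9 points. Prkar1a, which encodes a regulatory subunit of protein kinase A, had 1 member of 5.57-fold in the aged list and 2.64-fold in the young list. It also had 1 mirror pair, and the median gap over its 5 pairs was −5.39 points. Abcc4, an exporter gene, and Crebbp, a coactivator gene, had 1 member each, among 15 and 10 pairs with median gaps of −2.62 and −4.89 points. Without Hpgd, a choice made after its values were seen, the list had 19 members among 355 pairs (5.35%, 3.25 to 8.23). Ptger4, the gene of the EP4 receptor, had 0 members among 4 pairs, with gaps of −2.18 to 15.4 points.

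JAK-STAT and gp130 genes had 13 members among 192 pairs (6.77%, 3.65 to 11.3), with a median gap of 1.66 points over the list. Jak1, Pias1, Socs3, Stat3 and Stat5b had 2 each, and Lifr, Osmr and Socs2 1 each. The member inside Stat3, the main transcription factor below gp130, had 8.17-fold in the aged list and 4.75-fold in the young list. A member 44694 bp from Socs3, a feedback inhibitor gene, had 5.05-fold in the aged list and 3.48-fold in the young list.

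Inflammation and NF-κB genes had 15 members among 241 pairs (6.22%, 3.53 to 10.1), with a median gap of 1.97 points. Tnfaip3, which encodes an inhibitor of NF-κB signalling, had 5 of 19, and the chemokine gene Cxcl5 3 of 8. The largest gap at Tnfaip3 was 37.1 points, with 6.68-fold in the aged list and 3.79-fold in the young list. Nfkb1, the gene of an NF-κB subunit, had 1 of 60. Cebpb, a C/EBP factor gene, had 1 of 24 and 3 mirror pairs.

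Extracellular matrix genes had 24 members among 475 pairs (5.05%, 3.26 to 7.42) and 23 mirror pairs. Sulf1, which encodes an enzyme that trims heparan sulfate, had 5 of 40, and Dcn, the gene of the proteoglycan decorin, 3 of 16. A member 23572 bp from an end of the Dcn span had 6.2-fold in the aged list and 2.33-fold in the young list. Nid1, the gene of a basement membrane protein, had 3 of 6 and Mmp2, a matrix protease gene, 1 of 7. TGF-β and BMP genes had 17 members among 414 pairs (4.11%, 2.41 to 6.49) and 6 mirror pairs, among them 3 each at Smad6 and Tgfbr3 and 2 each at Bmp4 and Tgfbr2. Immediate early genes had 8 among 198 (4.04%), and fibro-adipogenic markers 5 among 120 (4.17%), 3 of them at Dcn.

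Shares at genes of the muscle lineage were below the 3.52% of all assigned pairs, with intervals that included it. Genes of stem cell identity and quiescence had 11 among 468 pairs (2.35%, 1.18 to 4.17) and 22 mirror pairs. They included 2 at Itgb1, which encodes the integrin β1 chain, and 1 each at Foxo1 and Spry1. Genes of differentiation and fusion had 0 members among 98 pairs, a count that allows a share of up to 3.69%, and 22 mirror pairs (22.4%, against 6.69% of all assigned pairs). Their median gap was −5.36 points. Myofibre genes had 2 among 76 (2.63%, 0.320 to 9.18), at Neb and Tpm1. Pax7, the transcription factor of muscle stem cells, had 0 members among 35 pairs with gaps of −45.6 to 18.2 points, and Myf5 0 among 7 with gaps of −19.8 to 16.2 points. Myod1, the commitment factor, had 0 among 5, with gaps of −7.11 to −0.119 points.

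Senescence and p53 genes had 4 members among 173 pairs (2.31%, 0.633 to 5.81) and 14 mirror pairs. Of these, 3 lay at Gadd45a, a stress and DNA damage gene, and 1 at Btg2. The strongest at Gadd45a, 12431 bp from the start, had 26.0-fold in the aged list and 12.3-fold in the young list. Cdkn2a and Cdkn1a, the genes of the cell cycle inhibitors p16 and p21, had 0 members among 4 pairs each. Their gaps ran from −3.86 to 18.2 points at Cdkn2a and from −3.23 to 3.1 at Cdkn1a. The remaining lists, from Notch and Wnt to Hox, clock, cell cycle and chromatin genes, gave 2.27% to 4.29%, with 0 of 53 pairs of glial genes.

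**Figure D4:**
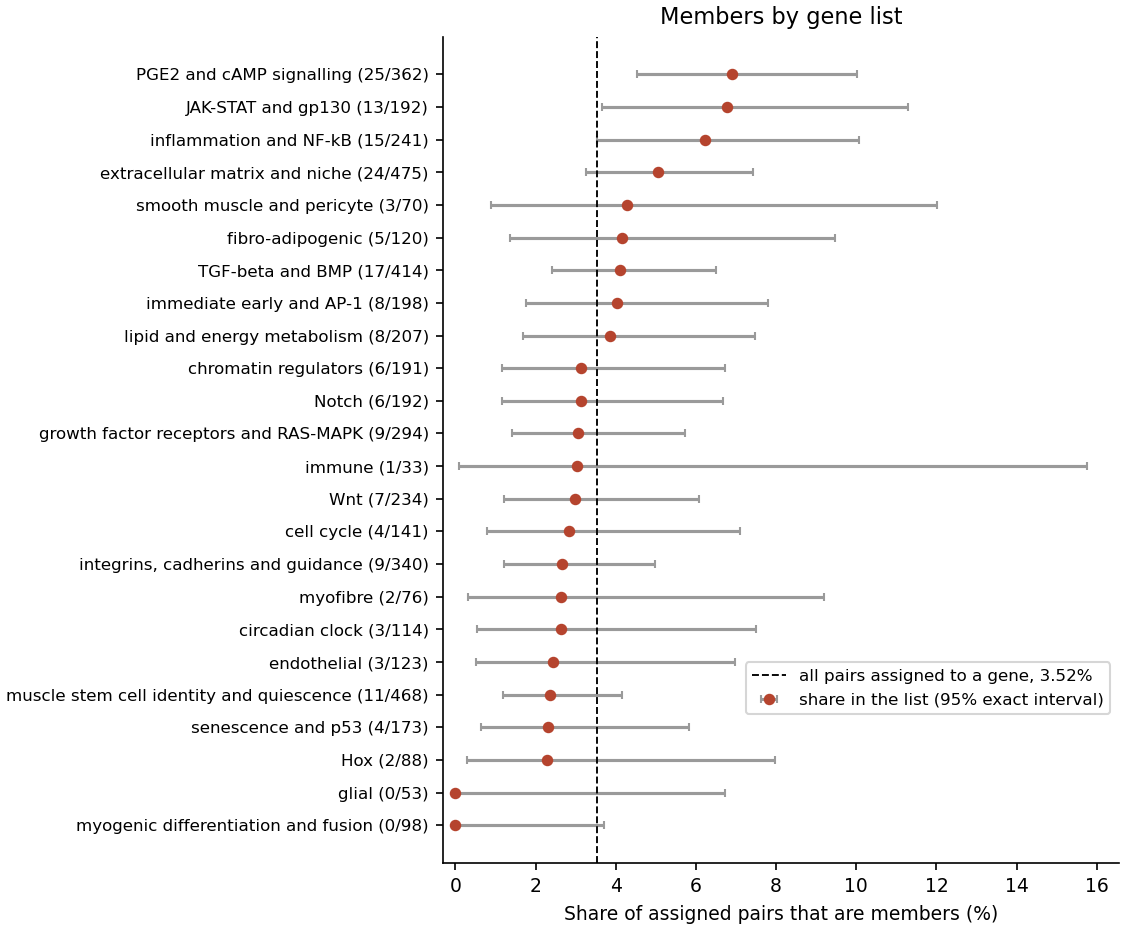
Share of the pairs assigned to each gene list that were members (%), with exact 95% binomial intervals and, in brackets, members and pairs. The dashed line marks 3.52%, the share of all pairs assigned to a gene. Shares run from 0 at differentiation and glial genes to 6.91% at PGE2 and cAMP signalling.

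Pairs on either side of the thresholds differed little. Just inside the gap were pairs at Rbms3 (69.0 in the aged list and 49.0 in the young list), Mmp19 and Bdkrb2. Just outside were pairs at Marchf10 (55.2 in the aged list and 35.3 in the young list), Tuba3b and Niban1, with gaps of 19.98 points each. The lowest aged fold among members was 5.05, as at Slc43a2, and the highest among pairs that missed it was 4.998, as at Zfp988.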

How the data were processed

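Muscle stem cells of aged and young mice were profiled by ATAC-seq. The submitters' processing notes name Bowtie2 and the build mm10 (GRCm38). Not given in the sources used here are the caller's version and options, duplicate filtering, shifting of read ends and which libraries went into a list. Both lists have the narrowPeak layout of MACS. The deposited fold ratio of a summit is the authors' enrichment over background, and 100% of folds were whole multiples of 1 step (tolerance 0.01), which gave the background and the fragments at each summit. The deposited −log10 q-value is the authors' value per peak and does not compare ages. The −log10 p-value and the deposited score were not used.

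Rows were merged, paired and ranked as described, with Python 3.11.15, numpy 2.4.6, pandas 2.3.3 and scipy 1.17.1. Steps were tested on simulated data. Gene spans (21900 protein-coding genes), start sites (17492 of them) and promoters came from RefSeq, GRCm38.p6. A pair was assigned to the nearest start site within 100 kb of the aged summit, or to the nearest end of the span for genes without one, among them all on chromosome 18. No genome sequence was used, so sequence outside promoter windows was not searched. Named items are the 15 largest gaps, the 10 highest aged folds, the 10 genes with the most members, up to 4 members per gene list, 7 fixed genes (Hpgd, Pax7, Myf5, Myod1, Ptger4, Cdkn2a and Cdkn1a) and the pairs beside each threshold. Start-site members, runs and bins, and the members of a list beyond its 4 largest gaps, were named after their values were seen. The members, gene lists and rule were chosen with earlier results of these data known. No test was made, since each age has 1 list. Fragments were amplified by PCR without molecular identifiers, and intervals cover counting error alone. Other gaps, folds, rankings, summaries, pairings, merging distances, thresholds and windows were tried as alternatives.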

Additional observations from a re-analysis of the deposited data

How the results depend on the processing

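The number of members depended on the thresholds. It was 7840 with a gap of 10 points, 1531 with 30 points, 6762 at an aged fold of 3, 645 at a fold of 10, and 1356 when regions were ranked among all regions of their list. Over the 8 other settings, which were ranking by fold, the mean over rows, a reciprocal overlap of 50%, summits within 100 bp, rows merged within 100 bp, a −log10 q of at least 5, autosomes alone, and no scaffolds or chromosome 9 below 3.1 Mb (the last chosen after seeing the data), it ran from 2840 to 4325. Ranking by fold gave the same 3494 members and 5200 mirror pairs as the q-value, so it was no separate check. Mirror pairs numbered 11829 with a gap of 10 points, 2068 with 30 points and 1186 at a fold of 10. They numbered 6375 at a fold of 3, fewer than members, and 3572 to 6851 in the other settings. The gene-end share of members was 2.02% with a gap of 30 points, 2.06% when ranked among all regions, 1.72% with windows of 500 bp and 6.78% with windows of 2.5 kb, and 2.17% to 3.02% in the 11 other settings. The share between genes was 51.4%, 51.3%, 49.6% and 47.1% under the same 4 settings, 52.4% at a fold of 10, and 47.5% to 49.4% otherwise. The share over 100 kb from a start site ran from 30.3% to 36.9% and the ratio of widths from 1.02 to 1.30, over every setting that recomputed them. With assignment within 50 kb, 83 in place of 168 genes had 3 or more members, and 132 in place of 176 members were in the gene lists. These settings recomputed values of members and the number of mirror pairs, not the shares of mirror pairs or of all pairs beside them.

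No paired analysis was possible because the lists hold no value per library, and for the same reason leaving out each replicate was not run. Motif shares in windows of 200 bp and 300 bp around summits were not run, since a genome sequence was not given. The lowest young fold of a member was 1.76, which was also the lowest over all pairs. Library depths are not known.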

Other observations

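Interferon response genes had 14 members among 141 pairs (9.93%, exact 95% interval 5.54 to 16.1), at 8 of 40 genes with a pair, with 4 mirror pairs, where 3.52% of all assigned pairs were members. The list was added after the values at Ifi47 were seen, so its count is a description with no support of its own. Ifi47 had 4 of 4, Slfn8 2 of 2, Irgm2 2 of 7 and Irf1 2 of 12. Iigp1, which encodes another interferon-inducible GTPase, had 1 of 4, with 8.79-fold in the aged list and 3.04-fold in the young list. Gbp7 had 1 of 3, Slfn5 1 of 5 and Uba7 1 of 2. The median gap over all 141 pairs was 1.28 points, and the remaining 32 genes with a pair had no member.

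Of 200 microRNA hairpins with a pair within 1 kb, 3 had a member there. This distance was not counted from the summit, which lay 1111 bp from Mir3067, 65 bp from Mir1247 and 650 bp from Mir7224. Over all pairs 4.3% were members, but that is a share of pairs and not of hairpins, so the 2 counts do not compare directly. At Mir3067 the member had 6.34-fold in the aged list and 3.48-fold in the young list, at Mir1247 7.64-fold in the aged list and 6.03-fold in the young list, and at Mir7224 11.1-fold in the aged list and 7.79-fold in the young list.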
